A study of Mus musculus with 40 samples.

Results

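The clustered histone genes are the replication-dependent genes for histones H1, H2A, H2B, H3 and H4, which lie side by side in a few clusters of the mouse genome. They were taken as the 69 of 35976 gene symbols in the deposited count table that start with Hist1h, Hist2h, Hist3h or Hist4h. The rule uses the symbols alone. By histone type there were 6 H1, 19 H2a, 19 H2b, 12 H3 and 13 H4 genes. By cluster, 55 lay in Hist1 on chromosome 13, 10 in Hist2 on chromosome 3, 3 in Hist3 on chromosome 11 and 1 in Hist4 on chromosome 6 (GRCm38, GENCODE M21). The annotation holds 2 of them as pseudogenes, the rest as protein-coding genes.

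RNA came from mouse bone marrow cells with or without Dnmt3a, a DNA methyltransferase, and Sting, the adaptor that links DNA in the cytosol to interferon. Per the labels, sorted long-term haematopoietic stem cells (LT), a common myeloid and granulocyte-macrophage progenitor sort (CMP/GMP) and megakaryocyte-erythroid progenitors (MEP) were each taken from wild type (WT) and Dnmt3a knockout (KO) mice, with 4 libraries a group except 3 of MEP WT. Cells expressing c-kit, a receptor on most haematopoietic progenitors, came from WT (2 libraries), Dnmt3a knockout (2), Sting knockout (2) and knockout of both genes (DKO, 3). The Dnmt3a allele is floxed and deleted through Mx1-Cre, in which interferon switches on the promoter of the recombinase, in many tissues. The sources used here do not say how Cre was induced, whether WT mice carried it, or the mice's age and sex. Nothing in the labels says which libraries came from separate mice, so p-values measure the spread between these libraries only.

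Replication-dependent histone genes are switched on as cells copy their DNA, when new chromatin needs new histones. Their messages have no introns and, as the only such class in animal cells, usually end in a short stem-loop in place of a polyA tail. The stem-loop binding protein Slbp and a cleavage complex with the U7 RNA make that end, and the messages are degraded when replication stops. A small share is made with a polyA tail from a downstream signal, more so in cells that leave the cycle. Replacement histones such as H3f3b and H2afz come from ordinary polyadenylated genes outside the clusters and are made throughout the cycle. The libraries were made from polyA RNA with a modified SMART-Seq2 protocol, in which the cDNA is copied and amplified before sequencing, so the clustered genes were read in a library type that their usual message end does not enter.

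The stem-loop was found in the annotated transcripts of 46 of the 69 genes. The same search matched 84 of 21810 other protein-coding genes (0.385%). The remaining 23 transcripts hold no match, which says only that these letters are not in the annotated model. The most frequent form was shared by 26 genes, another form by 7 and a further one by 6. The ends of the genes on which the results below turn are printed as DNA, 5′ to 3′, with the 16-base stem-loop in capitals and the flanking bases of the GENCODE transcript in lower case.
Hist1h2ap: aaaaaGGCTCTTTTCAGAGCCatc
Hist1h2ao: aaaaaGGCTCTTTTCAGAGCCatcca
Hist1h2ae: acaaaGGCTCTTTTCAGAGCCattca
Hist1h2ab: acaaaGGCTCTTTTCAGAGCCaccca
Hist1h1c: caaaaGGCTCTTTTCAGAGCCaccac
Hist1h2bg: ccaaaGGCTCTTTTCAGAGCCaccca
Hist1h4d: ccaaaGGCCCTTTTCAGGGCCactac
Hist1h4i: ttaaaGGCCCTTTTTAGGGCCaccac
The H1, H2a and H2b genes shown share the most frequent form, and both H4 genes carry other forms. After the stem-loop the annotated transcript of Hist1h2ap goes on for 3 bases, that of Hist1h2ao for 31, of Hist1h4i for 330, of Hist1h4d for 770 and of Hist1h1c for 840. In all, 23 genes had a model reaching more than 100 bases past the stem-loop and 23 had a shorter one.

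The sources used here do not name the annotation that the reads were counted on. Of the symbols in the table, 1965 have the LOC form of RefSeq, whose models end earlier for some members: Hist1h4i spans 403 bases there against a GENCODE transcript of 727, Hist1h4d 402 against 1138 and Hist1h1c 725 against 1560. How far the counted models reach was not tested. The copies are also alike in sequence. In 35 of the 69 genes fewer than 50% of the 50-base words of the transcripts occur in that gene alone, and for Hist1h2ap and Hist1h2ao the share was 6.93% and 6.5%. It was 71.1% for Hist1h4i, 89.8% for Hist1h4d, 91.5% for Hist1h1c and 100% for Hist1h1b. How reads that fit several copies were treated is not given either, so single H2a genes are uncertain, and sums over each histone type are given beside them.

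Gene reads per library ranged from 27437008 to 39973617 in c-kit+, 33220649 to 47663942 in CMP/GMP, 16924296 to 45839319 in LT and 3439743 to 36026668 in MEP. Levels are given as counts-per-million (CPM) of gene reads after TMM scaling. The sorted populations carried the markers of their labels. Summed HSC markers were at 1283 to 2725 CPM in LT, and MEP markers at 8610 to 17065 CPM in MEP. Myeloid progenitor markers were at 6953 to 33477 CPM in CMP/GMP and 12954 to 20432 CPM in c-kit+. They also reached 3551 CPM in LT WT (group median 412) and 3104 CPM in MEP KO (group median 755). Dnmt3a was below every WT library in all knockout libraries of CMP/GMP and c-kit+, but not in the libraries labelled LT KO 3 (119 CPM) and MEP KO 2 (41.9 CPM). Without either of these no clustered histone gene was called in its comparison. Tmem173, the gene of Sting, was at 9.61 to 11.7 CPM in the Sting KO and DKO libraries and at 43.8 to 65.1 CPM in the other c-kit+ libraries. MEP KO 2 had the fewest reads and reads in only 37 of the 69 genes, against 56 to 66 in the other libraries. CMP/GMP WT 2 and 4 (correlation of log2 CPM 0.986) and MEP KO 3 and 4 (0.987) were closer to each other than to the rest of their groups, though they differed by more than sampling noise. Short-term stem cell libraries are not analysed here, since the gene table repeats the names of their columns.

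Clustered histone RNA was 9.70-fold higher in CPM in the sorted cells than in the c-kit+ cells. Summed over the 69 genes it was at 726 ± 146 CPM in LT WT (SD, n = 4), 730 ± 36.7 in LT KO (n = 4), 958 ± 240 in CMP/GMP WT (n = 4) and 1173 ± 258 in CMP/GMP KO (n = 4). In MEP it was at 1345 ± 197 CPM in WT (n = 3) and 1021 ± 180 in KO (n = 4). In c-kit+ cells it was at 81.8 ± 6.19 CPM in WT (n = 2), 101 ± 19.4 in Dnmt3a KO (n = 2), 101 ± 12.6 in Sting KO (n = 2) and 113 ± 34.7 in DKO (n = 3). The lowest sorted library, at 644 CPM, stood above the highest c-kit+ library, at 150 CPM. In the order of means, LT WT and LT KO overlapped. All LT KO libraries (up to 764 CPM) lay below all CMP/GMP WT libraries (from 786), and the groups from there to MEP WT each overlapped the next. Within WT, LT (up to 944 CPM) and CMP/GMP overlapped. In c-kit+ cells both WT libraries (up to 86.2 CPM) lay below both Dnmt3a KO libraries (from 87.5), both Sting KO libraries (from 92.0 CPM) lay above both WT libraries too, and DKO overlapped every other group. Sums carry no test here.

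**Figure D1:**
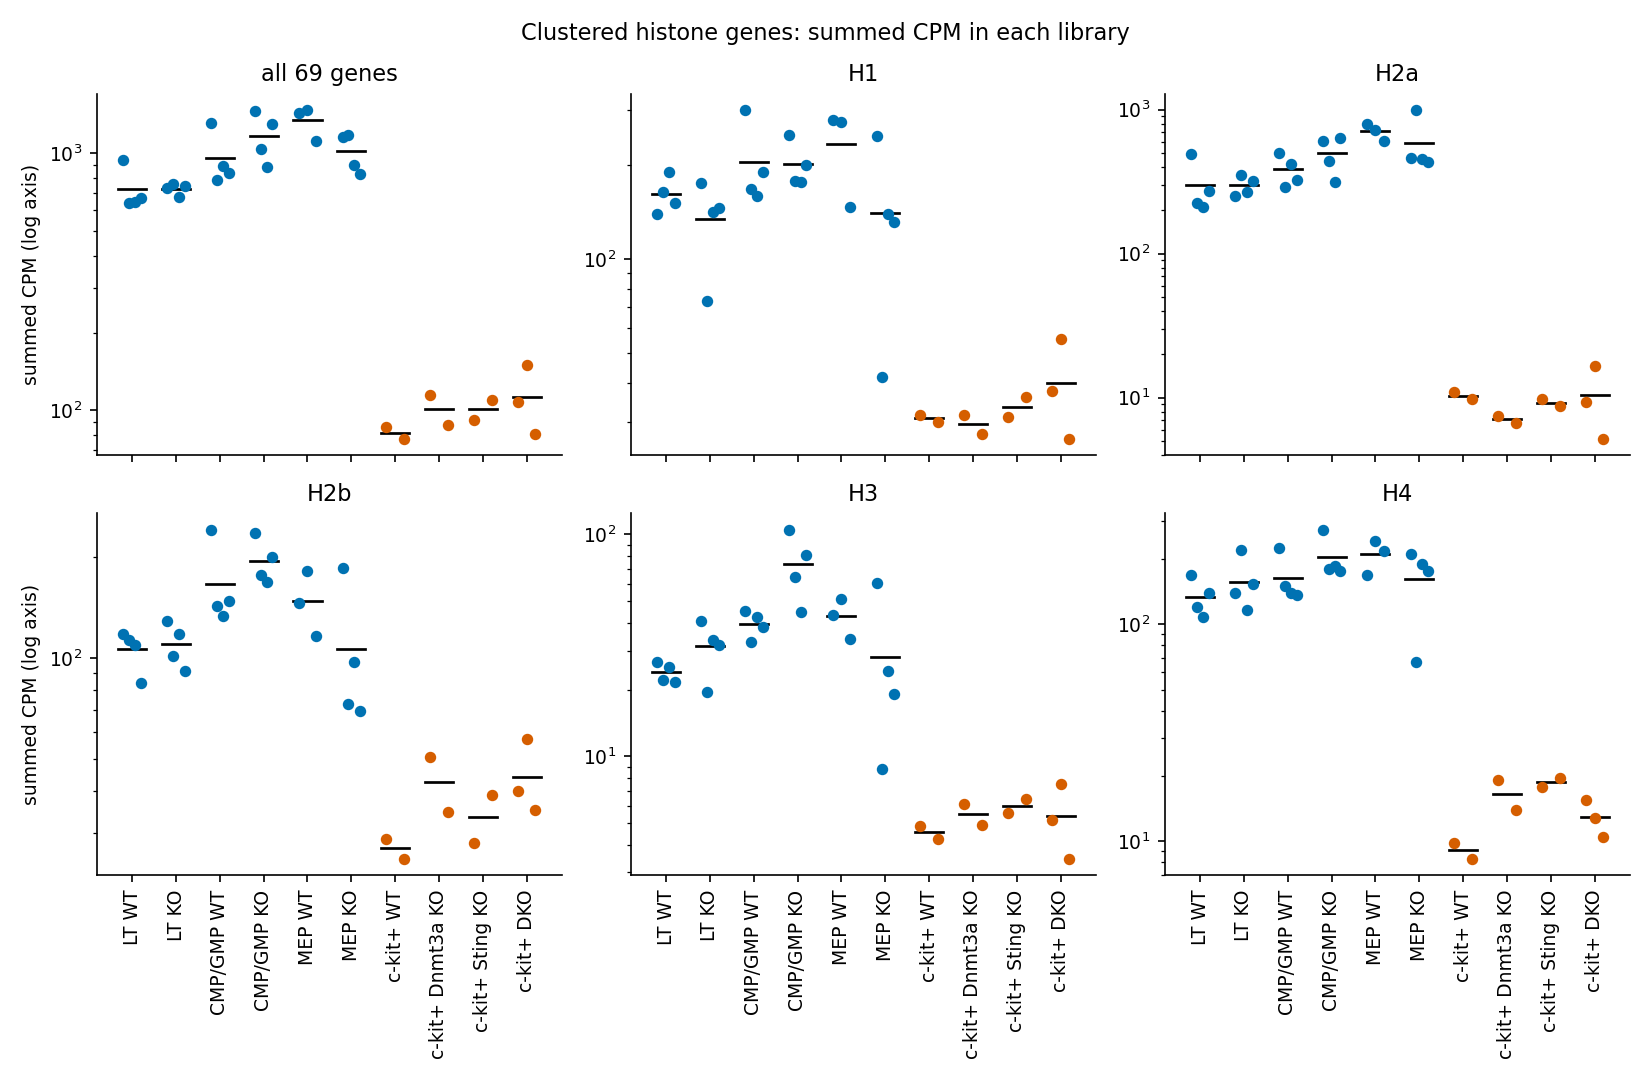
Summed CPM (log axis) of all 69 clustered histone genes and of each histone type, with 1 point per library and a bar at the group mean (blue, sorted; orange, c-kit+). For all genes together every sorted library lies at 644 CPM or more and every c-kit+ library at 150 CPM or less.

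The gap differed by histone type. Summed H2a genes were at a mean of 452 CPM over the 23 sorted libraries and 9.37 CPM over the 9 c-kit+ libraries, a fold of 48.2. For H4 the means were 170 and 14.1 CPM, for H3 39.8 and 5.35 CPM (7.44-fold), for H1 177 and 34.1 CPM (5.18-fold) and for H2b 138 and 37.7 CPM (3.67-fold). In WT libraries alone the folds were 42.7 for H2a, 18.2 for H4, 7.65 for H3, 6.38 for H1 and 5.16 for H2b. The make-up of the histone reads differed with it. H2a genes took 32.6 to 83.9% of clustered histone CPM in the sorted libraries and 6.40 to 12.7% in c-kit+, with no overlap. H1 genes took 3.53 to 29.7% in sorted and 27.5 to 38.6% in c-kit+ libraries, and H2b genes 6.16 to 18.8% and 30.4 to 44.0%. H4 genes took 5.66 to 28.8% and 8.55 to 19.3%, and H3 genes 0.737 to 7.18% and 4.28 to 6.03%, which overlapped.

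**Figure D2:**
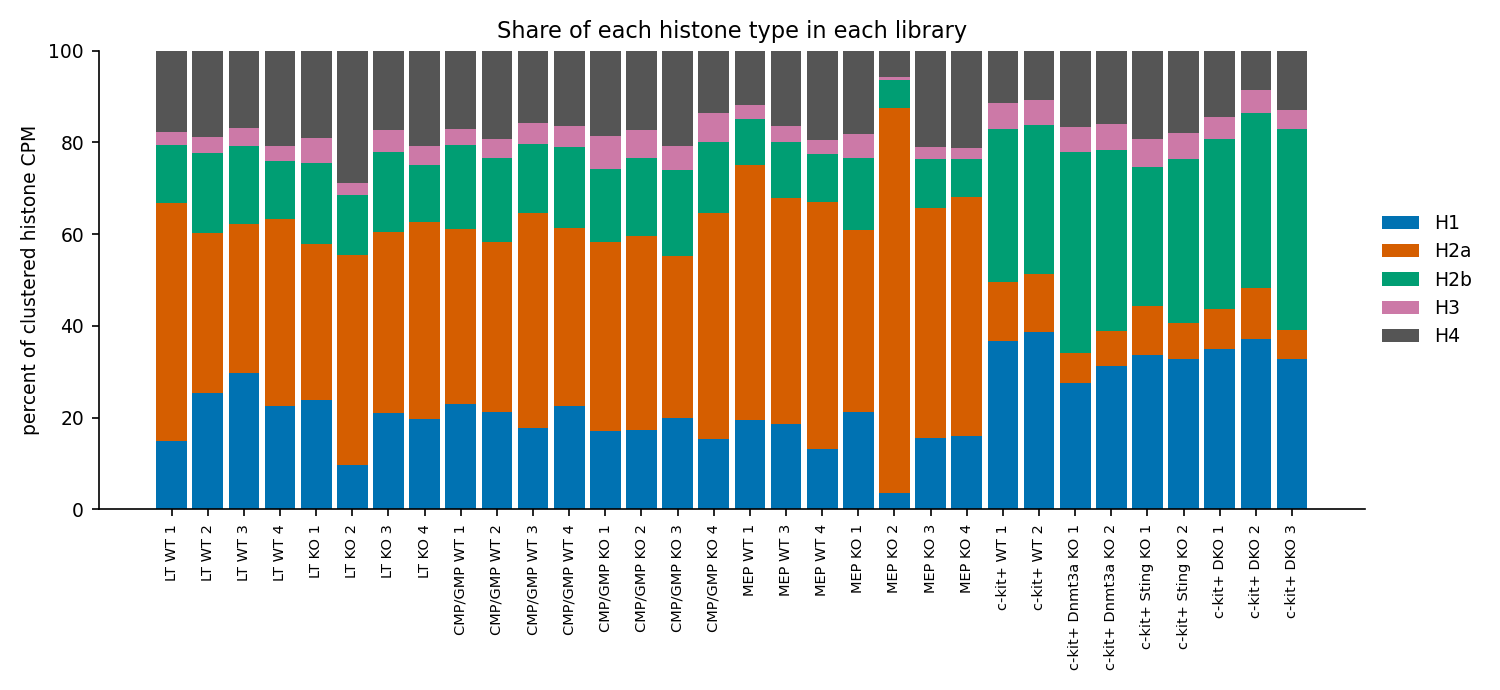
Percent of the CPM of clustered histone genes that falls to each histone type, with 1 stacked bar per library. H2a makes up 32.6% or more of every bar of a sorted library and 12.7% or less of every c-kit+ bar.

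Single genes covered a wide range around these sums. Of the 69 genes, 54 averaged 1 CPM or more over the 32 libraries, and in 12 of these (22.2%) every sorted library stood above every c-kit+ library. Among all 13235 genes at that level, 5.61% did so. None of the 54 had every sorted library below every c-kit+ library, which 8.91% of all genes had. More of the 32 libraries are sorted than c-kit+, so a gene can reach 1 CPM on average through the sorted libraries alone. In the c-kit+ libraries themselves 4 H1, 2 H2a, 6 H2b, 1 H3 and 1 H4 gene averaged 1 CPM or more, so nothing is read from either count. The 12 were Hist1h2ap, Hist1h2ao, Hist1h4d, Hist1h2ae, Hist1h2ak, Hist1h2ag, Hist1h2ai, Hist1h4c, Hist1h1b, Hist2h2ac, Hist1h2bc and Hist1h4n. The count was 25 with WT libraries alone, 16 without MEP KO 2 and 19 without the LT libraries, settings chosen after seeing the data, with 13.1%, 6.67% and 9.77% of all genes. The labels name 1 protocol for all libraries, and the c-kit+ population and its preparation cannot be told apart. Libraries of the same c-kit+ group correlated at 0.978 or more (log2 CPM), those of the same sorted group at 0.509 to 0.987.

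Hist1h2ap, an H2a gene, had the widest gap. It was at 46.2 to 336 CPM in the sorted libraries (median 113) and at 0.0561 to 0.485 CPM in c-kit+ (median 0.106), which came from 50 reads in all 9 libraries. The means differed 889-fold. The H2a gene Hist1h2ao was at 16.9 to 484 CPM (median 45.2) against 0.0281 to 0.311 CPM (median 0.144), and the H4 gene Hist1h4d at 29.3 to 176 CPM (median 104) against 0.259 to 1.29 CPM (median 0.455). These 3 genes were abundant in every sorted library and close to the floor in every c-kit+ library. Hist1h2ae had a median of 79.7 CPM in sorted and 1.29 CPM in c-kit+ libraries, and Hist1h2ak 31.0 and 0.571 CPM.

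The libraries of both kinds overlapped in 42 of the 54 genes, also in some with a wide fold, such as Hist1h2ab (39.3). At the other end were genes whose means differed little. Hist2h2be, an H2b gene with a model of 2667 bases in RefSeq, was at 0 to 16.8 CPM in sorted libraries (median 5.42) and at 3.04 to 9.18 CPM in c-kit+ (median 6.85), a fold of 0.952. Hist1h2bg, another H2b gene, was at 0 to 40.0 CPM (median 21.4) against 9.44 to 21.7 CPM (median 13.0). Hist1h4i, an H4 gene, was at 1.98 to 34.4 CPM (median 16.2) against 3.79 to 13.9 CPM (median 8.48). Hist1h1c, the linker histone H1.2, was at 0 to 123 CPM (median 75.3) against 19.0 to 42.2 CPM (median 24.6). In all 4 the sorted and c-kit+ libraries overlapped. The folds of their means ran from 0.952 to 2.69, beside those of Hist1h2be (1.64), Hist1h2bb (1.60), Hist1h4b (2.25), Hist1h2bh (2.32) and Hist1h3d (2.44).

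**Figure D3:**
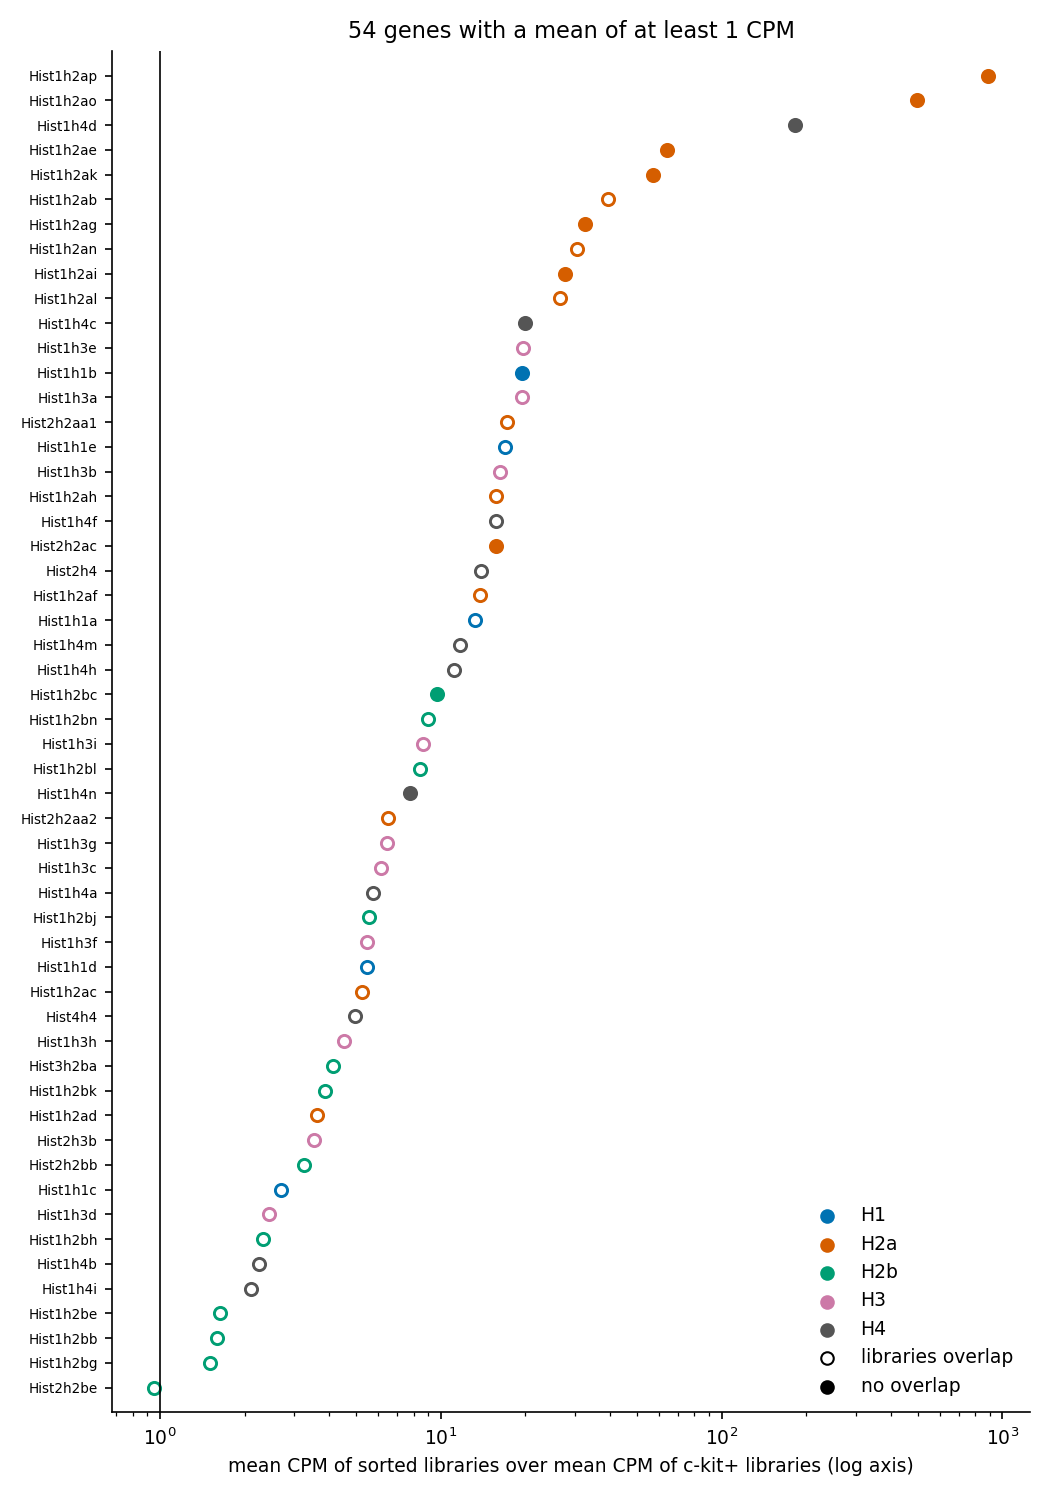
Mean CPM of the 23 sorted libraries over that of the 9 c-kit+ libraries (log axis) for the 54 genes at 1 CPM or more on average, coloured by histone type. Filled points mark the 12 genes whose sorted libraries all lie above all c-kit+ libraries. H2a genes fill most of the top and H2b genes most of the bottom, with Hist2h2be at 0.952.

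Of the 54 genes, 18 had the longer kind of model past the stem-loop, by the split given above, with a median fold of 5.35. For the 20 with the shorter kind the median was 11.4, and for the 16 without a match 11.3. The folds ran from 1.51 to 182, from 1.60 to 889 and from 0.952 to 56.9, which overlapped. Hist1h4d, with 770 bases past its stem-loop, had the 182. Hist1h2ap, with 3 bases, had the 889. Since the 54 genes can pass 1 CPM on average through the sorted libraries alone, nothing is read from the size of these medians. Whether the length past the stem-loop plays a part in the gap was not tested.

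Genes outside the clusters are described for the same pair of library kinds, where they averaged 1 CPM or more over all libraries. Over 11 replacement histones the median fold was 2.20, with every sorted library above every c-kit+ library in 1, H3f3b, which codes for histone H3.3 (mean 5092 CPM in sorted and 1035 in c-kit+). The median fold was 0.982 over 25 S phase genes, 0.596 over 17 G2/M genes and 0.767 over 20 genes of histone message processing. Summed S phase genes were at 2160 to 4680 CPM in LT, 5921 to 8145 in CMP/GMP, 3569 to 8026 in MEP and 5140 to 5773 in c-kit+. Macrophage markers summed to 318 to 1458 CPM in c-kit+ and 3.54 to 112 CPM in sorted libraries, over 8 genes, with Adgre1 at 0 in LT and MEP. B cell markers summed to 62.8 to 170 CPM and 2.0 to 74.7 CPM. The part of these cells in the gap was not tested. In bulk RNA, fewer cells of a type and less RNA per cell cannot be told apart.

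By reads, the 12 leading genes over all libraries held 75.6% of clustered histone CPM: Hist1h2ap, Hist1h4d, Hist1h2ae, Hist1h2bc, Hist1h1c, Hist1h2ao, Hist1h1b, Hist1h1e, Hist1h2ak, Hist1h2bg, Hist1h2ag and Hist1h4i. Per kb of the RefSeq span, for genes with a span of at most 1000 bases and for Hist2h2be, the order in sorted cells began with Hist1h2ap (mean 312 CPM per kb), Hist1h4d (280), Hist1h2ae (152), Hist1h2ao (138) and Hist1h1c (96.5). In c-kit+ cells it began with Hist1h1c (35.9), Hist1h2bg (29.8) and Hist1h4i (21.9), followed at a distance by Hist1h1d (3.68). The libraries of the first 3 overlapped in each list. Hist1h4d alone held 66.2% of H4 reads in sorted cells, and Hist1h4i 62.3% of those in c-kit+. Hist1h2bc, whose RefSeq span of 8282 bases keeps it out of the order per kb, led the H2b genes in sorted cells with 57.7%, and Hist1h2bg led in c-kit+ with 36.7%. Hist1h1c led H1 in both, with 39.6% and 76.2%. A read was found in every sorted library for 30 genes and in every c-kit+ library for 52. Hist3h2a had no read anywhere, and Hist1h1t and Hist1h2ba, known from testis, and Hist1h2aa had none in c-kit+ cells.

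Among WT sorted cells, 3 H2a genes were higher in MEP than in LT and 1 of them was lower in CMP/GMP than in MEP. All 3 comparisons were made in 1 fit over the 11 WT libraries. Of 64 clustered histone genes tested in MEP against LT, 3 were called at an adjusted p under 0.05 (edgeR's quasi-likelihood test, Benjamini-Hochberg), all higher in MEP (4.69%, against 13.2% of 14663 genes). The median log2 fold change was 0.88 over the 64 and -0.17 over all genes, and 51 of the 64 were above 0. DESeq2 called 6 (22.6% of genes), adding Hist1h1b, Hist1h2ai and Hist1h2bf.

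The 3 genes code for H2A. Hist1h2ap was at 228, 222 and 281 CPM in MEP WT and at 135, 57.1, 52.3 and 99.5 CPM in LT WT. The groups did not overlap, and the log2 fold change was 1.47 (SE 0.357, adjusted p = 0.0170, edgeR). Hist1h2ae was at 198, 176 and 107 CPM in MEP WT and at 97.1, 50.5, 31.6 and 55.5 CPM in LT WT, a log2 fold change of 1.41 (SE 0.356, adjusted p = 0.0205, edgeR). Hist1h2ab was at 31.4, 42.3 and 24.0 CPM against 6.36, 3.46, 3.71 and 13.7 CPM, a log2 fold change of 2.22 (SE 0.587, adjusted p = 0.0257, edgeR). All MEP libraries stood above all LT libraries for each of the 3. Each call ended without 1 or more single libraries: for Hist1h2ap MEP WT 4 (adjusted p = 0.0743), for Hist1h2ae LT WT 4, MEP WT 1 or MEP WT 3 (up to 0.0811) and for Hist1h2ab MEP WT 1, 3 or 4 (up to 0.113). Without LT WT 1, whose sum over all members was the highest of its group at 944 CPM, 7 of 62 clustered histone genes were called and 2765 of 14510 genes in all.

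**Figure D4:**
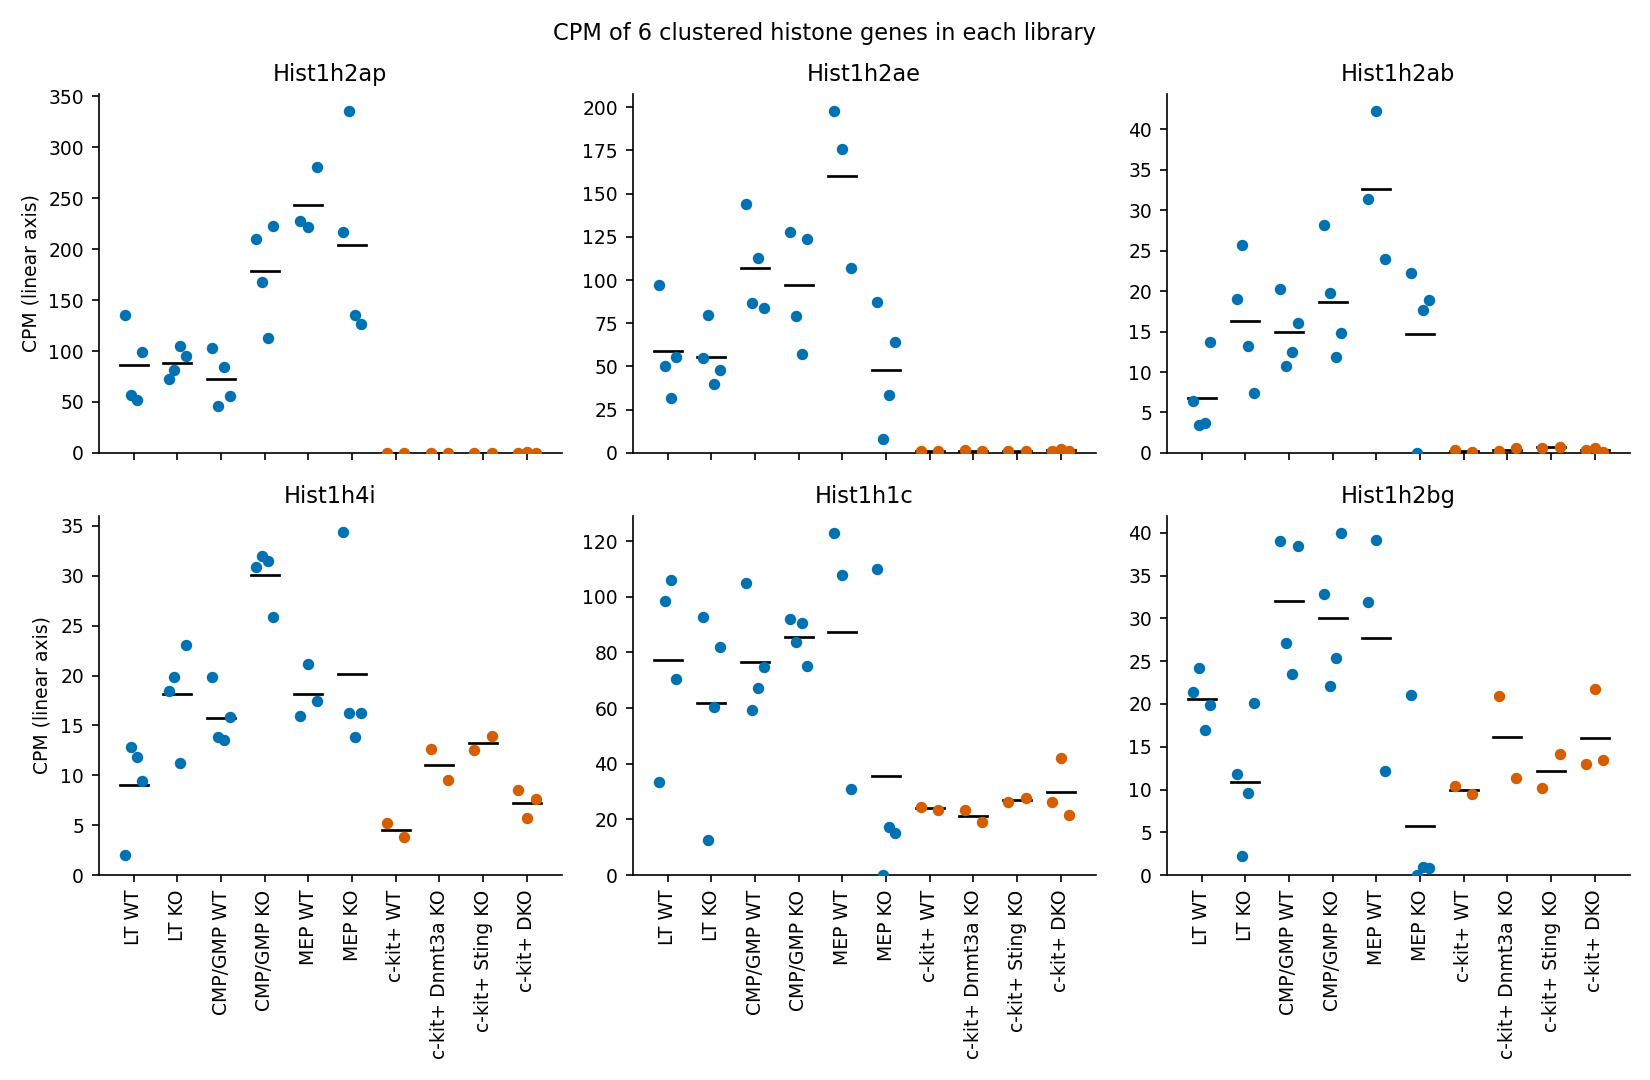
CPM (linear axis) of 6 clustered histone genes, with 1 point per library and a bar at the group mean (blue, sorted; orange, c-kit+). Hist1h2ap, Hist1h2ae and Hist1h2ab are higher in all MEP WT than in all LT WT libraries and near 0 in c-kit+, while Hist1h4i, Hist1h1c and Hist1h2bg are read in both kinds of cells.

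In CMP/GMP against LT none of 64 clustered histone genes was called by edgeR, against 8.74% of all genes. At an unadjusted p under 0.05 there were 6 (9.38%, against 26.2% of genes), and DESeq2 called 3, Hist1h2ai, Hist1h2bf and Hist1h2bh (17.3% of genes). The median log2 fold change was 0.82 against -0.09 over all genes, with 50 of 64 above 0. Without LT WT 1, Hist1h1b, Hist1h2ae and Hist1h2ak were called, and 2121 of 14510 genes in all. Between CMP/GMP and MEP, 1 of 64 was called, against 3.47% of all genes (DESeq2: 2, Hist1h2ap and Hist1h2ao, against 9.79%). Hist1h2ap was lower in CMP/GMP, at 103, 46.2, 84.0 and 56.2 CPM, than in MEP WT, with a log2 fold change of -1.71 (SE 0.358, adjusted p = 0.0176, edgeR). That call ended without CMP/GMP WT 2 or 4 or MEP WT 4, and when CMP/GMP WT 2 and 4 were summed as 1 library (adjusted p up to 0.0948), and without LT WT 1 Hist1h2ao was called too (adjusted p = 0.0122).

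The genes around histone supply are read against the 8.74% and 13.2% of all genes called in CMP/GMP and in MEP against LT. Of 25 S phase genes 18 were called higher in CMP/GMP and 15 in MEP. Among them, Rrm2, a subunit of ribonucleotide reductase, was higher by 2.35 (log2, SE 0.306) in CMP/GMP and by 2.42 (SE 0.319) in MEP. Of 20 genes of histone message processing, 4 were called higher in CMP/GMP and 3 in MEP, and none lower. Slbp, which binds the stem-loop, was higher by 1.09 (log2, SE 0.285) and 1.14 (SE 0.302). Of 13 histone chaperones 1 was called higher in each, and of 17 G2/M genes 2 and 1, shares near or below those of all genes. Of 11 replacement histones 3 rose and 1 fell in CMP/GMP, and 5 rose and 1 fell in MEP. H2afz, the histone H2A.Z, was higher by 1.14 (log2, SE 0.219) and 1.07 (SE 0.232), and H1f0, the linker histone known from non-dividing cells, had log2 fold changes of -2.51 (SE 0.366) and -1.55 (SE 0.392).

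The promoters of the 3 H2a genes are printed because these genes were higher together in MEP, and that of Hist1h4i because of its change in c-kit+ cells. They run from 250 bases before to 50 after the gene's start in RefSeq (GRCm38.p6), 5′ to 3′ on the gene's strand. Capitals mark matches, on either strand, to the letters TATAAA of a TATA box, CCAAT of a CCAAT box, ATTTGCAT of an octamer and AAACACA of a box known from H1 promoters. No match overlapped another kind in the 4 windows. The windows are chr13:21833426-21833725 (minus strand), chr13:23571171-23571470 (minus), chr13:23750838-23751137 (plus) and chr13:22041313-22041612 (minus).
Hist1h2ap: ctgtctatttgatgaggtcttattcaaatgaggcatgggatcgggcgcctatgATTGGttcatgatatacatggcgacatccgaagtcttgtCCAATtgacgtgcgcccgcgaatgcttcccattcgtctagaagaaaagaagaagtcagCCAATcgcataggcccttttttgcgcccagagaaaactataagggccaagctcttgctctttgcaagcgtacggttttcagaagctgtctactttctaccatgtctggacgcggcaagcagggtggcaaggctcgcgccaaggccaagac
Hist1h2ae: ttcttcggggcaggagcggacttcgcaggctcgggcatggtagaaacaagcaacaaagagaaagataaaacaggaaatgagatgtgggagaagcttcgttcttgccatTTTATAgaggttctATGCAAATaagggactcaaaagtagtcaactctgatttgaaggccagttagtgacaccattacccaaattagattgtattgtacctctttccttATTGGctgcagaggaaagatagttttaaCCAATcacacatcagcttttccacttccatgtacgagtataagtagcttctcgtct
Hist1h2ab: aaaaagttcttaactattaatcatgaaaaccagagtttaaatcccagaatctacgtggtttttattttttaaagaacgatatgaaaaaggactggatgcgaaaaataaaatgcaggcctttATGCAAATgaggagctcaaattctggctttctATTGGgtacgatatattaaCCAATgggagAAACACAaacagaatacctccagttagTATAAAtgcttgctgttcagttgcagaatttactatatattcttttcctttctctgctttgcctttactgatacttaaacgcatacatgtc
Hist1h4i: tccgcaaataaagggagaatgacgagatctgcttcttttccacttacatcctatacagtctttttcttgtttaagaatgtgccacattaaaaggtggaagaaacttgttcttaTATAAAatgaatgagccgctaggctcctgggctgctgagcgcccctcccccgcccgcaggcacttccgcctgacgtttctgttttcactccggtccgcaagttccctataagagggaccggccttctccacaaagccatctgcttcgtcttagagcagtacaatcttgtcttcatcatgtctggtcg
RefSeq promoters were found for 62 of the 69 genes. CCAAT was in 85.5% of them against 37.9% of 27025 promoters of the same length, in every H1, H2a, H2b and H3 promoter and in 25.0% of H4 promoters. TATAAA was in 56.5% against 14.2%, and the octamer in 21.0% against 1.75%, in H2a (38.9%) and H2b (37.5%) promoters. AAACACA was in 5 of 6 H1 promoters against 7.14% of all. The 4 printed windows show these forms side by side, with the octamer letters in the windows of Hist1h2ae and Hist1h2ab and not in that of Hist1h2ap. The Hist1h2ae window runs into Hist1h2bg, which spans 23571400 to 23571863 in RefSeq. Letters marked in that window can therefore not be assigned to 1 of these 2 genes. What any of the matches does was not tested.

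After loss of Dnmt3a edgeR called no clustered histone gene in any sorted population, and DESeq2 called 4, all in CMP/GMP. In LT, edgeR called 0 of 58, and 0% of 12800 genes. None of the 58 had an unadjusted p under 0.05 (1.18% of genes), and DESeq2 called none (0.0547%). In CMP/GMP it called 0 of 62 and 0% of 13205 genes. There 9 of the 62 (14.5%) had an unadjusted p under 0.05, against 9.06% of genes, and the median log2 fold change was 0.38 against 0.01. In MEP it called 0 of 60 and 0% of 12323 genes. There 2 of the 60 (3.33%) had an unadjusted p under 0.05, against 13.0%, and the median was -0.51 against -0.03. DESeq2 called none in MEP (4.55% of genes). Whether the effect of Dnmt3a loss differed between the 3 populations was tested with an F-test, which called 0 of 64 (0.0186% of 16136 genes). By DESeq2 none was called in that test (0.799%), and 2 of 64 (3.12%) had an unadjusted p under 0.05 in edgeR, against 12%.

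In CMP/GMP, DESeq2 called 4 genes higher in the knockout (6.45%, against 1.21% of genes): Hist1h2ap, Hist1h2ag, Hist1h4i and Hist1h4m. The KO libraries had 210, 168, 113 and 223 CPM of Hist1h2ap, the WT libraries 103, 46.2, 84.0 and 56.2 CPM. For Hist1h4i they had 30.9, 32, 31.5 and 25.9 CPM against 19.9, 13.8, 13.5 and 15.8 CPM, with a log2 fold change of 0.96 (SE 0.251, adjusted p = 0.328, edgeR). Hist1h2ag was at 44.4, 37.7, 21.4 and 25.3 CPM against 14.8, 7.93, 12.4 and 9.19 CPM. For each of these the groups did not overlap, which adds no support, since the genes were picked by calls on the same libraries. Hist1h4m had a log2 fold change of 1.58 (SE 0.461, adjusted p = 0.0480, DESeq2). CMP/GMP WT 2 and 4, which correlated at 0.986, count as separate libraries here. DESeq2 was not run with them summed. Summed H3 genes were at 73.7 ± 25.7 CPM in KO and 39.7 ± 5.39 in WT (SD, n = 4 each), and summed H2a genes at 499 ± 151 and 384 ± 94.1 CPM. The libraries overlapped in both sums. By edgeR, which called 0% of 13205 genes in this comparison, S phase genes had a median log2 fold change of -0.09, with 0 of 25 called.

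In MEP the knockout libraries were unlike each other. Hist1h1c had 110, 0, 17.2 and 15.3 CPM in MEP KO 1 to 4 against 123, 108 and 30.9 CPM in MEP WT. Hist1h2bg was at 21.0, 0, 0.973 and 0.839 CPM against 31.9, 39.1 and 12.2 CPM. For both genes MEP KO 1 stood with the WT libraries and the others below them. Hist1h2ap was at 217, 336, 135 and 127 CPM in KO, with KO 1, 3 and 4 below and KO 2 above every WT library. MEP KO 2 held 83.9% of its clustered histone CPM in H2a genes. Leaving out MEP KO 1 leaves the shallow MEP KO 2 with KO 3 and 4, which correlated at 0.987 (other pairs of the group, 0.525 to 0.594). The error of that fit thus rests partly on 2 libraries that are nearly alike. Without MEP KO 1, edgeR called 6 of 60 clustered histone genes, all lower in the knockout. That was a lower share than the 2882 of 11880 genes called in all. Among the 6 were Hist1h2bg (log2 fold change -5.22, SE 1.10, adjusted p = 0.0161) and Hist2h2be (-9.74, SE 1.95, adjusted p = 0.0215). Hist2h2be had 4.13, 0, 0 and 0 CPM in KO against 5.42, 7.81 and 1.52 CPM in WT, so that fitted value rests on libraries without a read and is no bound. The F-test called 2 of 64, Hist1h2bg and Hist2h2be, without MEP KO 1, and 844 of 16064 genes in all. In LT, Hist1h4i had 18.5, 19.9, 11.2 and 23.1 CPM in KO against 1.98, 12.8, 11.8 and 9.47 CPM in WT, which overlapped.

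In c-kit+ cells edgeR called 1 clustered histone gene, the H4 gene Hist1h4i (chromosome 13, 22040960 to 22041362 in RefSeq). It was at 5.21 and 3.79 CPM in WT and at 12.5 and 13.9 CPM in Sting KO. The Dnmt3a KO libraries had 12.6 and 9.55 CPM, the DKO libraries 8.48, 5.72 and 7.59 CPM. Both single knockouts thus stood above both WT libraries, and the DKO libraries lay between. In Sting KO against WT the log2 fold change was 1.56 (SE 0.241, adjusted p = 0.0223, edgeR), the only 1 of 57 genes called (1.75%, against 0.774% of 16026 genes). DESeq2 called the same gene and no other (2.88% of genes). The call ended without WT 1 (adjusted p = 0.0858), WT 2 (0.152), Sting KO 1 (0.0889) or Sting KO 2 (0.169), with log2 fold changes of 1.34 to 1.81.

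The difference in Hist1h4i between Dnmt3a genotypes varied with Sting by edgeR, with a limit from Xist given below. The interaction, the Dnmt3a effect without Sting minus that with Sting, was -2.18 (log2, SE 0.320, adjusted p = 0.0385, edgeR), again the only 1 of 57 called (against 0.150% of genes; DESeq2: 1, against 1.24%). With Sting present the log2 fold change of Dnmt3a KO against WT was 1.32 (SE 0.241, adjusted p = 0.0505, edgeR), with a call without DKO 1 (0.0460), DKO 2 (0.0171) or DKO 3 (0.0424). Without Sting, DKO against Sting KO gave -0.86 (SE 0.211, adjusted p = 0.340, edgeR). The interaction was not called with library size alone (adjusted p = 0.0513), with a term for Xist (0.183), or without any 1 of WT 1 (0.110), WT 2 (0.172), Dnmt3a KO 1 (0.235), Dnmt3a KO 2 (0.0995), Sting KO 1 (0.113), Sting KO 2 (0.143) and DKO 3 (0.0576). The X-inactivation RNA Xist reached 1810 CPM in DKO 1 and 2171 and 2307 CPM in Dnmt3a KO 1 and 2. It was at most 0.640 CPM in the other c-kit+ libraries. In Dnmt3a KO against WT, genotype and Xist level therefore cannot be told apart, for any gene. That comparison is also part of the interaction. Macrophage markers summed to 1372 and 1458 CPM in c-kit+ WT, 318 and 343 in Sting KO, 515 and 548 in Dnmt3a KO and 349 to 512 in DKO, with 6 of 8 called lower in Sting KO, 3 of 8 in Dnmt3a KO and 8 of 8 in DKO, each against WT. Their part in the level of Hist1h4i was not tested.

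Within 100 kb of Hist1h4i lie 4 other clustered histone genes. Hist1h2bj, an H2b gene at 22043198 to 22043658, had log2 fold changes of 1.51 (SE 0.638) in Sting KO and 2.48 (SE 0.636) in Dnmt3a KO and an interaction of -2.58 (SE 0.825), none of them called by edgeR (adjusted p = 0.402, 0.124 and 0.466). Hist1h2ag, between both genes, had 0.67 (SE 0.567) and 0.87 (SE 0.568). Hist1h2ah and Hist1h2bk, on the other side, had -0.58 (SE 0.910) and -1.05 (SE 0.574) in Sting KO. The neighbours therefore gave values of both signs, each with a wider error than Hist1h4i.

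No other c-kit+ comparison had a call among 57 clustered histone genes by edgeR. Dnmt3a KO against WT had 0 (against 0.568% of genes), with 10 (17.5%) at an unadjusted p under 0.05 against 16.3%, and 3 by DESeq2 (5.26%, against 4.04%): Hist1h4i, Hist1h2bj and Hist2h2be. DKO against WT had 0 (1.26%), with 5 (8.77%) at an unadjusted p under 0.05 against 16.7%, and 2 by DESeq2 (3.51%, against 5.78%). DKO against Dnmt3a KO had 0 (0.156%), with 6 (10.5%) at an unadjusted p under 0.05 against 7.91%, and 0 by DESeq2 (0.618%). DKO against Sting KO had 0 (0%), with 6 (10.5%) at an unadjusted p under 0.05 against 11.6%, and 2 by DESeq2 (3.51%, against 0.842%). At the unadjusted threshold the shares were near those of all genes, or below. The median log2 fold change in DKO against WT was 0.54, with 44 of 57 above 0, beside 0.05 in each single knockout. Copies share sequence, so such counts are not counts of separate genes, here and between the WT sorted populations. The genes were not tested as a set. DKO 2, at 150 CPM in all members, was the highest c-kit+ library and DKO 3, at 80.8 CPM, was among the lowest. These comparisons share control libraries, so their values are given side by side.

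Both DESeq2 calls in DKO against WT and in DKO against Sting KO were Hist1h4i and Hist2h2be, the latter named after its values were seen. Hist2h2be was at 4.65 and 3.81 CPM in WT and at 3.04 and 4.80 in Sting KO. Dnmt3a KO libraries had 8.30 and 6.85 CPM, and DKO libraries 8.78, 7.95 and 9.18 CPM. All 5 libraries without Dnmt3a stood above all 4 with it. In edgeR the log2 fold change was 1.04 in DKO against WT (SE 0.222, adjusted p = 0.0597), 1.15 in DKO against Sting KO (SE 0.223, adjusted p = 0.267) and 0.86 in Dnmt3a KO against WT (SE 0.238, adjusted p = 0.139). The first of these was called without DKO 3 (adjusted p = 0.0499), Sting KO 1 (0.0412) or Sting KO 2 (0.0472). By the same measure Hist1h2bg was at 10.4 and 9.44 CPM in WT, 10.2 and 14.1 in Sting KO, with Dnmt3a KO at 20.9 and 11.3 and DKO at 13.0, 21.7 and 13.4, and those groups overlapped.

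The lists around histone supply had few calls after gene loss. In LT, CMP/GMP and MEP no replacement histone, processing, chaperone, S phase or G2/M gene was called between knockout and WT, where edgeR called 0 genes in all. In c-kit+ cells 1 of 13 chaperones was lower in DKO than in WT, Supt16, a subunit of the FACT complex that moves histones ahead of polymerases, with a log2 fold change of -0.45 (SE 0.0871, adjusted p = 0.0446, edgeR). Of the replacement histone, processing, S phase and G2/M lists none had a called gene in any c-kit+ comparison. Median log2 fold changes of the S phase list there ran from -0.10 in the interaction to 0.08 in Sting KO against WT.

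**Figure D5:**
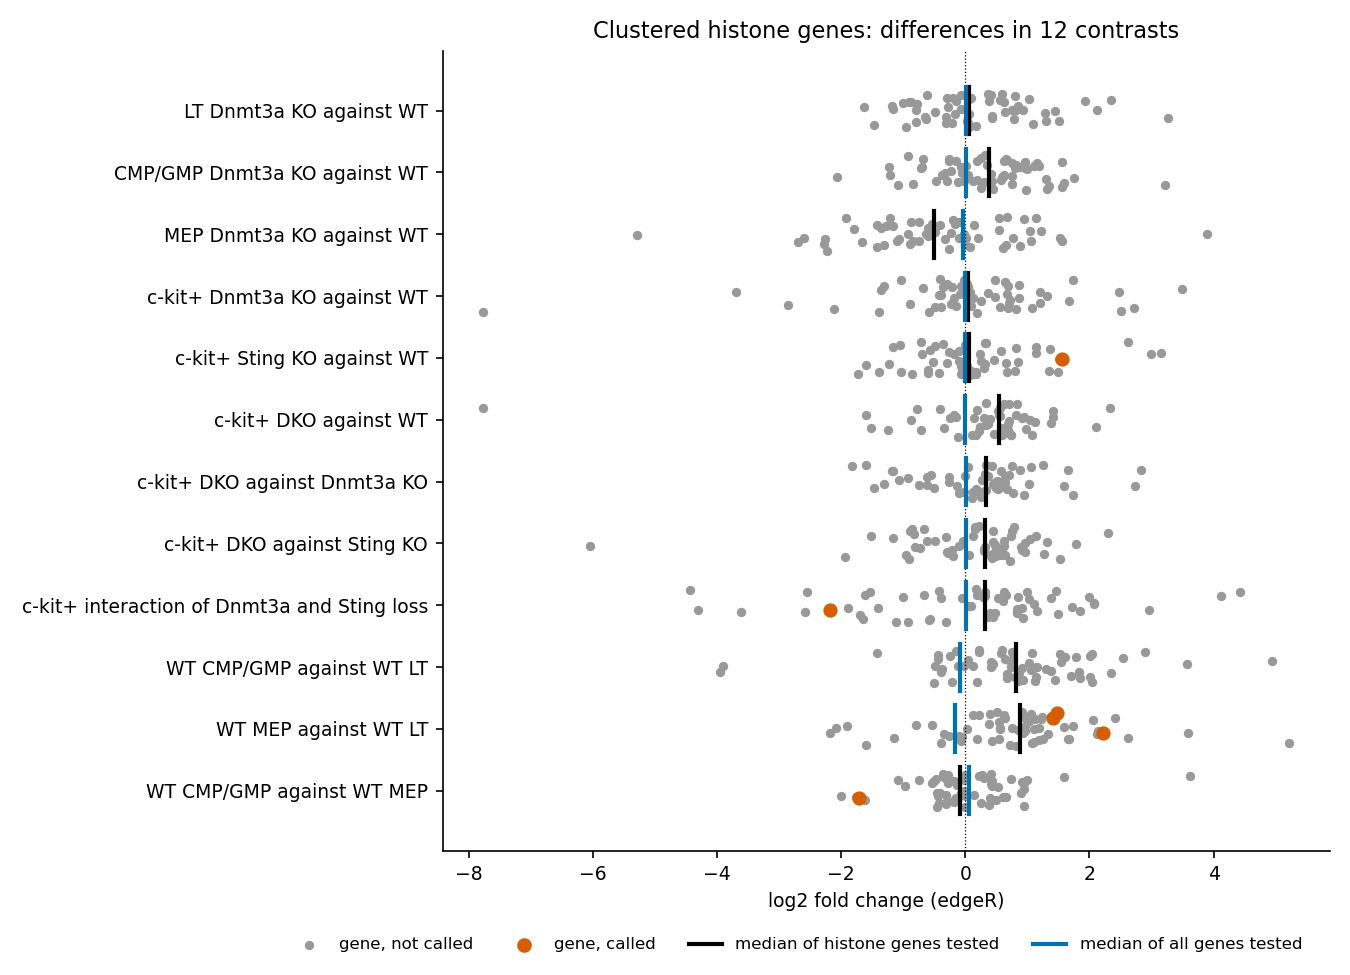
Log2 fold changes of the clustered histone genes tested in each of 12 contrasts (edgeR), with 1 point per gene, orange where called, and bars at the median of these genes (black) and of all genes tested (blue). The black bar lies to the right of the blue one most in the WT contrasts with LT (0.82 and 0.88) and to its left in MEP KO against WT (-0.51).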

How the data were processed

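The 32 libraries analysed hold RNA of sorted or c-kit+ mouse marrow cells. The deposited table holds raw counts per gene, which the authors made, per the submitters' processing notes, with Trim Galore 0.6.7, HISAT2 and featureCounts 2.0.1 on mm10, with DESeq2 1.34.0 among their tools. The sources used here do not give the annotation, the use of strand or the treatment of reads that fit several copies, so a gene and an overlapping or antisense neighbour cannot be told apart. A set of 8 columns with repeated names was not used.

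CPM were scaled by TMM over all 32 libraries. Differences were tested with edgeR 4.0.16 (quasi-likelihood test) in R 4.3.3 with limma 3.58.1, after filterByExpr (minimum count 10, minimum total 15), with Benjamini-Hochberg adjustment over all genes tested and a threshold of 0.05. Fits were made per population, over the 9 c-kit+ libraries, over the WT sorted libraries and over all sorted libraries. Alternatives were DESeq2 1.42.0, other scalings, no filter, a replicate block and leaving out libraries. The scripts were tested on simulated data. Members and lists were chosen with earlier results of these data known. Named genes were the 12 members with the highest mean CPM, up to 6 called members per direction with a mean of at least 1 CPM, and up to 3 genes of a list. Other members named were chosen after their values were seen.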

Additional observations from a re-analysis of the deposited data

Results flagged for a closer look

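In groups of 4 libraries, 90 sets of values were searched for 1 library far from the others, and 13 were found, where chance gives about 1 in 20 (4.50). MEP KO 2, the shallowest library, stood high in summed H2a genes at 995 CPM (others 434 to 460), in Hist1h2ao at 484 CPM (57.8 to 122) and in Hist1h2ag at 111 CPM (18.5 to 29.1). MEP KO 1 stood high in Hist1h1c at 110 CPM (0 to 17.2), in Hist1h2bg at 21.0 CPM (0 to 0.973) and in Hist1h4i at 34.4 CPM (13.8 to 16.2). CMP/GMP WT 1 stood high in summed H2b at 241 CPM (133 to 148), summed H4 at 224 CPM (137 to 151), Hist1h2bc at 142 CPM (65.8 to 76.1) and Hist1h1e at 89.3 CPM (34.6 to 42.5). CMP/GMP KO 1 stood high in summed H4 at 273 CPM (177 to 185). LT WT 1 stood high in the sum of all members at 944 CPM (644 to 669) and in Hist1h2ak at 78.6 CPM (5.68 to 17.1).

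In c-kit+ cells the difference in Hist1h4i between Dnmt3a genotypes varied with the Sting genotype. The interaction term was -2.18 on the log2 scale (adjusted p = 0.0385, edgeR). The sign held in all 15 alternatives, but only 6 of them called it (adjusted p up to 0.235, edgeR). The call ended without any 1 of the WT, Dnmt3a KO or Sting KO libraries and with a term for Xist. Both Dnmt3a KO libraries and no WT library had high Xist, so genotype and Xist level cannot be told apart between these groups.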

How the results depend on the processing

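No called difference turned its direction under the alternatives run on it. Counts of called clustered histone genes moved as follows. With DESeq2 there were 4 in CMP/GMP KO against WT, 3, 2 and 2 in c-kit+ Dnmt3a KO against WT, DKO against WT and DKO against Sting KO, and 3, 6 and 2 in WT CMP/GMP against LT, MEP against LT and CMP/GMP against MEP. With no filter on low counts there were 8, 4 and 4 in Dnmt3a KO, Sting KO and DKO against WT, 3 in DKO against Sting KO and 4 in the interaction, while calls over all genes went from 91, 124, 202, 0 and 24 to 1219, 735, 1359, 408 and 446. Fitting only the groups compared gave 6 in Dnmt3a KO against WT, with 1260 over all genes. The interaction had 0 with library size alone and 0 with the Xist term. Summing the closest pairs gave 0 in CMP/GMP against MEP. The count of genes with every sorted library above every c-kit+ library was 25 in WT alone and 19 without LT. The Xist term, the summed pairs and these last settings were chosen after seeing the data.

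Leaving out 1 library gave 0 to 6 in MEP KO (6 without KO 1), 0 to 1 in Dnmt3a KO, Sting KO and DKO against WT and in the interaction, 0 to 3 in CMP/GMP against LT, 1 to 7 in MEP against LT, 0 to 2 in CMP/GMP against MEP, 0 to 2 in the test between populations, and 16 sorted-above genes without MEP KO 2. Over all genes, Dnmt3a KO against WT had 647 calls with DESeq2 and 181 with the replicate block.

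With the replicate block, 1 clustered gene was called in c-kit+ Dnmt3a KO against WT, and in MEP against LT the call of Hist1h2ab ended (adjusted p = 0.0524, edgeR) and Hist1h1b was called (0.0442). Deviations of same-numbered libraries had correlations of -0.188 to 0.155 (31 pairs, 5 over 0.1). Pairs with unlike numbers reached 0.3255 (LT WT 1 with LT KO 2). In c-kit+ groups of 2 libraries, values for like and unlike numbers mirror each other by construction. Between WT sorted populations same-numbered values were mostly positive, up to 0.155 (LT 1 with CMP/GMP 1), with -0.0566 for CMP/GMP 4 with MEP 4. Xist was at most 7.44 CPM in sorted libraries numbered 1 or 2. In those numbered 3 or 4 it was at least 752 CPM, except CMP/GMP WT 4 (0.803 CPM). The numbers were not taken as pairs in the main fits, and whether they mark shared mice or batches was not tested. Under another scaling 118 of 120 sums moved by less than 1 SD, and H1 in c-kit+ WT (32.5 CPM) and all members in LT KO (793 CPM) moved by more, with library size alone. Of 133 differences of the 12 leading genes that were not called, 53 had the opposite sign under some setting. Depth limits MEP KO 2, with 3439743 gene reads.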
